A study of Saccharomyces cerevisiae with 15 samples.

Results

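The 8 genes described here encode the citrate synthases (CIT1, CIT2 and CIT3), aconitase (ACO1), the subunits of the NAD-dependent isocitrate dehydrogenase (IDH1 and IDH2), fumarase (FUM1) and the mitochondrial malate dehydrogenase (MDH1) of Saccharomyces cerevisiae. They were chosen by gene symbol, and each of the 8 had 1 probe set on the Affymetrix Yeast Genome S98 array. They are 8 of 5656 genes with a name on the array, of which 4660 had a tested probe set. All samples came from the recombinant xylose-utilising strain VTT-C-99318, a CEN.PK2-1D derivative carrying XYL1 and XYL2 of Pichia stipitis and an additional copy of XKS1, expressed from the PGK1 promoter (XYL1) or a modified ADH1 promoter (XYL2 and XKS1) and placed in URA3 and HIS3 with kanMX. The parent is a MATα haploid with MAL2-8c, SUC2 and mutant alleles of LEU2, URA3, TRP1 and HIS3, so the groups differ in carbon source and time but not in genotype.

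Aerobic batch cultures were compared in 3 states with 3 cultures each, called F0, F1 and F2. Glucose cultures started at 50 g/l were sampled at 5 h with 37 g/l glucose left (Glc5h, glucose repressed), and the same cultures were sampled at 24 h with no glucose and 13 g/l ethanol (Glc24h, glucose derepressed). Separate xylose cultures started at 50 g/l were sampled at 72 h with 32 g/l xylose left (Xyl72h). State, time and growth phase cannot be told apart in this design. The F2 sample of each state was hybridised 3 times and counted as 1 sample, giving 9 samples from 15 arrays.

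In yeast mitochondria, citrate synthase joins acetyl-CoA and oxaloacetate, aconitase isomerises citrate, and isocitrate dehydrogenase makes 2-oxoglutarate, the carbon skeleton of glutamate. Fumarase and malate dehydrogenase close the cycle by regenerating oxaloacetate. On high glucose, genes of the cycle are repressed together with respiration, and the HAP complex drives them on respiratory carbon sources. The early part of the cycle, with CIT2, is known also to answer to the retrograde pathway of RTG1, RTG2 and RTG3.

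CIT3, ACO1, IDH1, FUM1 and MDH1, 5 of the 8 genes, rose from Glc5h to Glc24h, and none fell, while 14.4% of all probe sets rose and 19.1% fell. The calls of FUM1 and MDH1 were lost in 10 and 6 of 23 alternatives. On xylose MDH1 passed the test against Glc5h, a call lost in 11 of 23 alternatives, where 11.7% of all probe sets were higher. CIT1 did not pass it as reported or with the culture as a random block. CIT1 passed it under all 4 other scalings and with the fermentation number as a block, although that number joins separate xylose and glucose cultures. CIT3 and IDH1 were lower on xylose than in Glc24h, as were 2.26% of all probe sets, with calls lost in 2 and 8 of 23 alternatives. The median log2 difference of the 8 genes was 0.92 for Glc24h minus Glc5h, against -0.03 over all 5877 probe sets tested, 0.45 against -0.02 for Xyl72h minus Glc5h, and -0.45 against 0 for Xyl72h minus Glc24h. Signals are the deposited linear array signals, scaled to a common 75th percentile of 51.1, raised to a floor of 16 and compared on the log2 scale with limma, with Benjamini-Hochberg adjustment over all probe sets tested and a threshold of 0.05. They are relative to each array, so an amount of RNA per cell cannot be read from them, and levels of different probe sets are not comparable. The limma fit took Glc5h and Glc24h samples as independent, although they came from the same cultures.

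Over all probe sets tested, 14.4% rose and 19.1% fell from Glc5h to Glc24h. Against Glc5h, the xylose state had 11.7% higher and 14% lower, and against Glc24h it had 3.37% higher and 2.26% lower. Signals of every Glc24h culture lay above those of every Glc5h culture for 6 of the 8 genes, against 18.6% of all probe sets. The same separation of Xyl72h above Glc5h held for 2 of 8, against 19.4%, and that of Xyl72h below Glc24h for 3 of 8, against 10.3%. The F-test over the 3 states called 4 of 8, namely CIT3, ACO1, IDH1 and MDH1, against 34.3%. The mean log2 signal was highest in Glc24h for all 8 genes, a count for which no share of all probe sets was computed. For 6 of them the means ran in the order Glc5h, Xyl72h, Glc24h, which 20.6% of all probe sets did. Leaving out 1 sample could change the sign of Xyl72h minus Glc24h for CIT1, CIT2, IDH2 and MDH1, so their order is not settled.

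**Figure D1:**
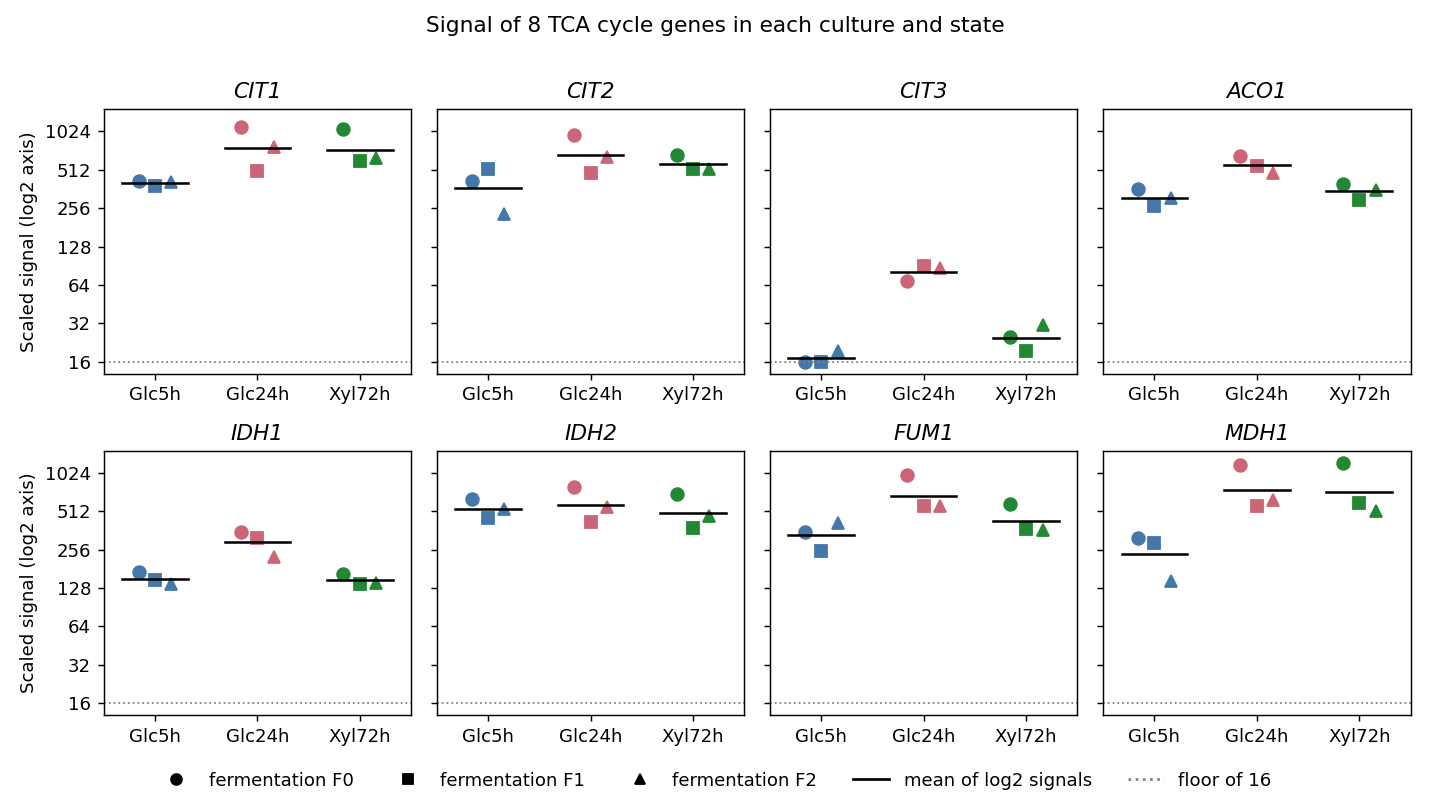
Scaled signal (log2 axis) of each gene in the 3 cultures of each state, with symbols for the fermentations, bars for the mean of the log2 signals and a dotted line at the floor of 16. CIT3 lay between 68.3 and 89.8 in Glc24h and at or below 31.0 in all other samples, while IDH2 overlapped across the 3 states.

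Library properties differed between samples. The ratio of the 3′ to the 5′ actin control probe sets was 1.86 to 2.29 over the Glc5h arrays, 2.18 to 10.3 over the Glc24h arrays and 1.88 to 2.77 over the Xyl72h arrays, the highest being the Glc24h array of F1. The same ratio for the YER148W control was 2.71 to 3.80, 2.97 to 3.68 and 3.19 to 4.13 in the 3 states, and 3.24 on that array. F0 gave the highest of the 3 signals for 7 of the 8 genes in Glc24h and for 7 of 8 in Xyl72h, and F1 the lowest for 5 and 6 of 8. The part of RNA quality in the results below was not tested. Fermentation number was fitted as a block, and calls that changed with it are given below. Values without a culture are given where they change a call. Over the 8 genes the SD of log2 signals was 0.40 between cultures and 0.18 between the repeat hybridisations of F2 (root mean squares).

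CIT1, the mitochondrial citrate synthase that feeds the cycle, gave 416, 379.9 and 412 in the Glc5h cultures F0, F1 and F2. It gave 1110.2, 496 and 766 in Glc24h, and 1059 (F0), 595 (F1) and 628 (F2) in Xyl72h. All Glc24h and Xyl72h cultures lay above all Glc5h cultures, with F0 highest and F1 lowest in each state. The log2 difference from Glc5h was 0.90 ± 0.32 (SE, n = 3) for Glc24h, with a limma adjusted p of 0.0674 and a 95% interval of 0.15 to 1.65, and 0.87 ± 0.32 for Xyl72h, with an adjusted p of 0.0892 and an interval of 0.12 to 1.62. Neither passed the threshold. With the fermentation number as a block both did, at adjusted p of 0.0237 and 0.0333. For the second, that number joins separate xylose and glucose cultures. Without the Glc24h sample of F1 the first difference was 1.20 with an adjusted p of 0.0250. Xyl72h and Glc24h differed by -0.03, with an interval of -0.78 to 0.72.

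CIT2, the peroxisomal citrate synthase of the glyoxylate cycle, gave 415, 522 and 229 in Glc5h. Its signals were 949.9, 479.6 and 648 in Glc24h and 671, 514.3 and 514.3 in Xyl72h. The states overlapped in each comparison. The Glc5h mean was 389 ± 148 (SD, n = 3), with F2 lowest at 229 and F1 highest at 522, above the F1 signals of both other states. The log2 difference was 0.86 for Glc24h minus Glc5h, with a limma adjusted p of 0.101 and a 95% interval of 0.04 to 1.68. For Xyl72h minus Glc5h it was 0.61, with an interval of -0.21 to 1.44, and for Xyl72h minus Glc24h -0.24, with an interval of -1.07 to 0.58.

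CIT3, a mitochondrial isozyme that acts as a citrate and 2-methylcitrate synthase in propionate breakdown, was at the floor of 16 in F0 and F1 and at 19.5 in F2 of Glc5h. It reached 68.3, 89.8 and 86.2 in Glc24h and 25.0, 19.4 and 31.0 in Xyl72h. Every Glc24h culture lay above every other sample, and the Xyl72h and Glc5h cultures overlapped. CIT3 was higher in Glc24h than in Glc5h by at least 2.24 ± 0.20 on the log2 scale, or 4.73-fold, with a limma adjusted p of 0.000294. It was lower in Xyl72h than in Glc24h by a log2 difference of -1.71 ± 0.20, with an adjusted p of 0.00494. For Xyl72h minus Glc5h the value was at least 0.53, with an adjusted p of 0.0894, and without the Xyl72h sample of F1 it was 0.71 with an adjusted p of 0.0417. The floor set its size, which was 1.66 with a floor of 4 and 0.01 with a floor of 32. With a floor of 4 in place of 16, the adjusted p of Xyl72h against Glc24h was 0.124, and with a floor of 1 it was 0.158.

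ACO1, the aconitase that also has a role in maintaining mitochondrial DNA, gave 359.9, 264 and 306 in Glc5h. Its signals were 657, 549 and 484 in Glc24h and 395, 295 and 353 in Xyl72h. Glc24h stood above both other states in every culture, while Glc5h and Xyl72h overlapped. The log2 difference was 0.86 ± 0.18 for Glc24h minus Glc5h, or 1.82-fold, with a limma adjusted p of 0.00890. For Xyl72h minus Glc5h it was 0.17, with a 95% interval of -0.25 to 0.58. For Xyl72h minus Glc24h it was -0.69 ± 0.18, with an adjusted p of 0.0721 and an interval of -1.11 to -0.28. With the fermentation number as a block, which here joins separate cultures, the limma adjusted p was 0.0302.

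IDH1, the regulatory subunit of isocitrate dehydrogenase, gave 171, 147 and 138 in Glc5h. In Glc24h it gave 349, 317 and 225, and in Xyl72h 164, 137 and 140.5. The lowest Glc24h culture was above the highest culture of both other states, which overlapped. IDH1 was 1.93-fold higher in Glc24h than in Glc5h, a log2 difference of 0.95 ± 0.18 with a limma adjusted p of 0.00681. It was lower in Xyl72h than in Glc24h by -0.99 ± 0.18 on the log2 scale, with an adjusted p of 0.0260. This call was lost on leaving out the F0 or F1 sample of Glc24h or any of the 3 Xyl72h samples, at adjusted p between 0.0560 and 0.0978. Xyl72h minus Glc5h was -0.05, with an interval of -0.47 to 0.38.

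IDH2, the catalytic subunit, gave 641, 450.2 and 536 in Glc5h. Its signals were 796, 424 and 553 in Glc24h and 699, 375 and 472 in Xyl72h. In each state F0 was highest and F1 lowest, and the states overlapped throughout. None of its differences passed the test. The log2 difference was 0.09 for Glc24h minus Glc5h, with a 95% interval of -0.61 to 0.79, -0.11 for Xyl72h minus Glc5h, with an interval of -0.81 to 0.60, and -0.20 for Xyl72h minus Glc24h, with an interval of -0.90 to 0.51. Under quantile normalization the first was 0.64 with an adjusted p of 0.0136, and under cyclic loess 0.57 with 0.0116.

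FUM1, the fumarase that works in both mitochondria and cytosol, gave 352, 249.5 and 416 in Glc5h. It gave 988, 559 and 562 in Glc24h and 583, 373 and 363 in Xyl72h. The Glc24h cultures were all above the Glc5h cultures, whereas Xyl72h overlapped with both glucose states. The log2 difference was 1.03 ± 0.31 for Glc24h minus Glc5h, or 2.04-fold, with a limma adjusted p of 0.0378. The adjusted p was between 0.0526 and 0.113 on leaving out the F0 or F1 sample of Glc5h, any Glc24h sample, or the F1 or F2 sample of Xyl72h. Xyl72h minus Glc5h was 0.37, with a 95% interval of -0.35 to 1.09, and Xyl72h minus Glc24h was -0.66, with an interval of -1.38 to 0.07.

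MDH1, the mitochondrial malate dehydrogenase that regenerates oxaloacetate, gave 318, 287 and 146 in Glc5h. It gave 1185, 564 and 625 in Glc24h and 1227, 592 and 515 in Xyl72h. Every culture of both later states was above every Glc5h culture, with the F0 signal the highest in each. MDH1 was 3.16-fold higher in Glc24h than in Glc5h, a log2 difference of 1.66 ± 0.46 with a limma adjusted p of 0.0273, and 3.04-fold higher in Xyl72h than in Glc5h, a log2 difference of 1.61 ± 0.46 with an adjusted p of 0.0392. The first call was lost without the F1 or F2 sample of Glc5h or the F0 or F2 sample of Glc24h, at adjusted p of 0.0524 to 0.0864. The second was lost on leaving out any sample other than that of F0 in Glc24h, at 0.0553 to 0.115. Xyl72h minus Glc24h was -0.05, with a 95% interval of -1.12 to 1.02.

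**Figure D2:**
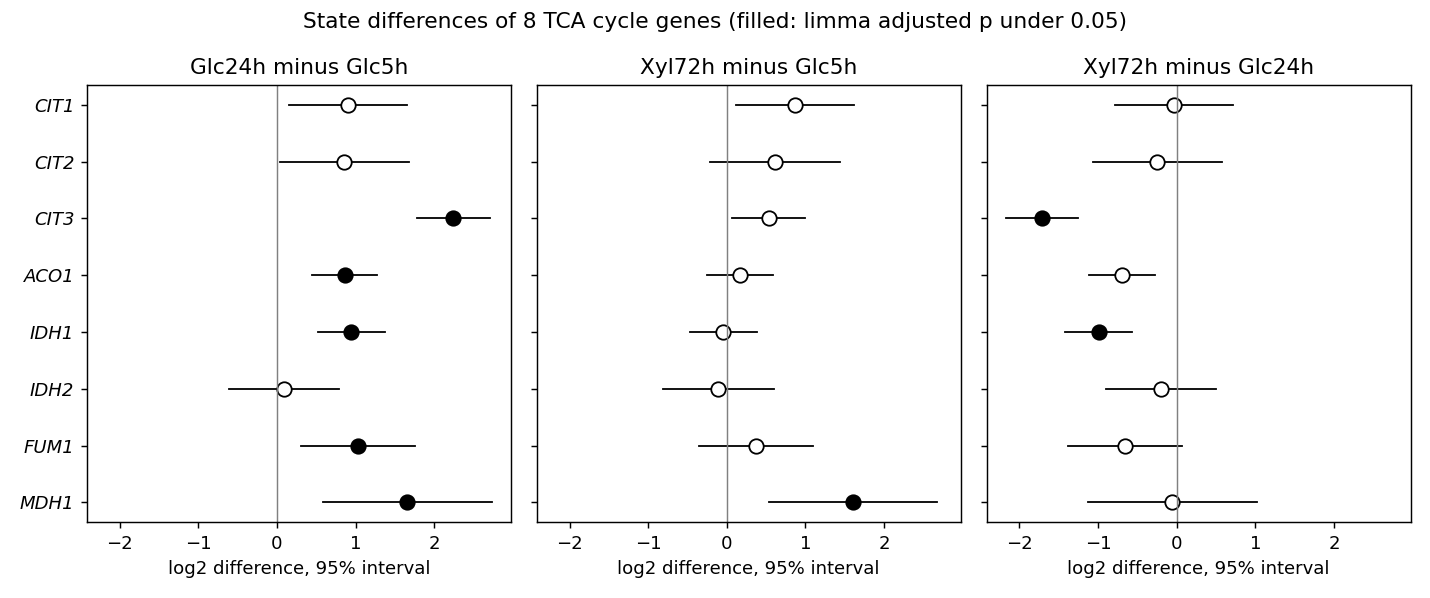
Difference in mean log2 signal between states for each gene, with 95% intervals from limma (3 cultures a state). Filled points passed the adjusted p of 0.05, 5 in Glc24h minus Glc5h, 1 in Xyl72h minus Glc5h and 2 in Xyl72h minus Glc24h.

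Several of these calls also depended on scaling and filtering. For Glc24h minus Glc5h, CIT1 and CIT2 passed under all 4 other scalings, CIT1 at limma adjusted p of 0.000302 to 0.0257 and CIT2 at 0.00579 to 0.0313. For Xyl72h minus Glc5h, CIT1 passed under the same 4, at 0.0388 as deposited, 0.00204 under quantile normalization, 0.00717 under cyclic loess and 0.0454 on reference genes. ACO1 in Xyl72h minus Glc24h passed with the signals as deposited (0.0160), under quantile normalization (0.0310) and under cyclic loess (0.00874). In the same comparison IDH2 and FUM1 passed under cyclic loess, at -0.69 (0.0257) and -1.12 (0.0367). With no filter on low signals, the adjusted p rose to 0.0930 for FUM1 and 0.0755 for MDH1 in Glc24h minus Glc5h, to 0.103 for MDH1 in Xyl72h minus Glc5h, and to 0.0629 for IDH1 in Xyl72h minus Glc24h. When only the states compared were fitted, it was 0.0718 for FUM1 in Glc24h minus Glc5h, 0.0800 for MDH1 in Xyl72h minus Glc5h and 0.0677 for IDH1 in Xyl72h minus Glc24h. CIT3, ACO1 and IDH1 in Glc24h minus Glc5h passed under each of the 23 alternatives run.

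The position of the xylose mean between the glucose states was described as its share of the log2 difference from Glc5h to Glc24h. The share was 96.5% for CIT1 (60.8% to 141% over 22 alternatives) and 96.8% for MDH1 (73.6% to 121%). It was 71.5% for CIT2 (44.9% to 102%), 36.0% for FUM1 (14.5% to 53.2%) and 19.4% for ACO1 (7.52% to 45.3%). IDH1 stood at -4.76% (-13.3% to 28.9%). The ranges of neighbouring genes overlap, so no order is read from them, and for CIT1 and CIT2 the glucose difference itself did not pass. No share is given for CIT3, which was at the floor in 2 of 3 Glc5h cultures, or for IDH2, whose glucose difference was near 0.

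Whether enzymes that work together shifted unequally was tested on the within-sample log2 difference between their probe sets, for 7 pairs, by an exact permutation F-test over the 9 samples (280 ways to part them, smallest possible p of 0.00357). The IDH2 minus IDH1 difference was 1.91, 1.61 and 1.95 in Glc5h, 1.19, 0.42 and 1.29 in Glc24h and 2.09, 1.45 and 1.75 in Xyl72h. It was lower in every Glc24h culture than in every other sample, and fell by 0.86 from Glc5h to Glc24h, with an exact p of 0.0321 and an adjusted p of 0.075 over the 7 pairs. Without the Glc24h sample of F1, whose array had the highest actin ratio, the change was -0.58, with an exact p of 0.104 and an adjusted p of 0.181. Within the fermentation numbers the IDH2 minus IDH1 difference changed by -0.72, -1.19 and -0.66 from Glc5h to Glc24h. From Glc24h to Xyl72h, which were separate cultures, it changed by 0.90, 1.03 and 0.45. CIT3 minus CIT1 changed by at least 1.34 from Glc5h to Glc24h and by -1.68 from Glc24h to Xyl72h (exact p = 0.0143, adjusted p = 0.05). The floor set the first of these, which was 2.47 with a floor of 4 and 0.44 with a floor of 32, at adjusted exact p of 0.075 and 0.0833.

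FUM1 minus MDH1 changed by -0.63 from Glc5h to Glc24h and by -1.23 from Glc5h to Xyl72h, with the Xyl72h cultures below all others (exact permutation p = 0.0143, adjusted p = 0.05). An adjusted p of 0.05 is at the threshold and not under it, so none of the 7 pairs was called. That test treats the 9 samples as exchangeable, although Glc5h and Glc24h samples of the same number came from the same culture. The xylose cultures were separate, so their number does not pair them by culture. Permuting states within each fermentation number (216 arrangements, smallest possible p of 0.0278) gave exact p of 0.0833 for IDH2 minus IDH1, 0.0556 for CIT3 minus CIT1 and for FUM1 minus MDH1, and 0.0278 for IDH1 minus ACO1, with adjusted p of 0.13 or more for all 7. Without the Glc5h sample of F1, FUM1 minus MDH1 had an exact adjusted p of 0.025. For the other pairs the exact p was 0.0607 for MDH1 minus CIT1, 0.0893 for ACO1 minus CIT1, 0.107 for IDH1 minus ACO1 and 0.707 for CIT2 minus CIT1.

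**Figure D3:**
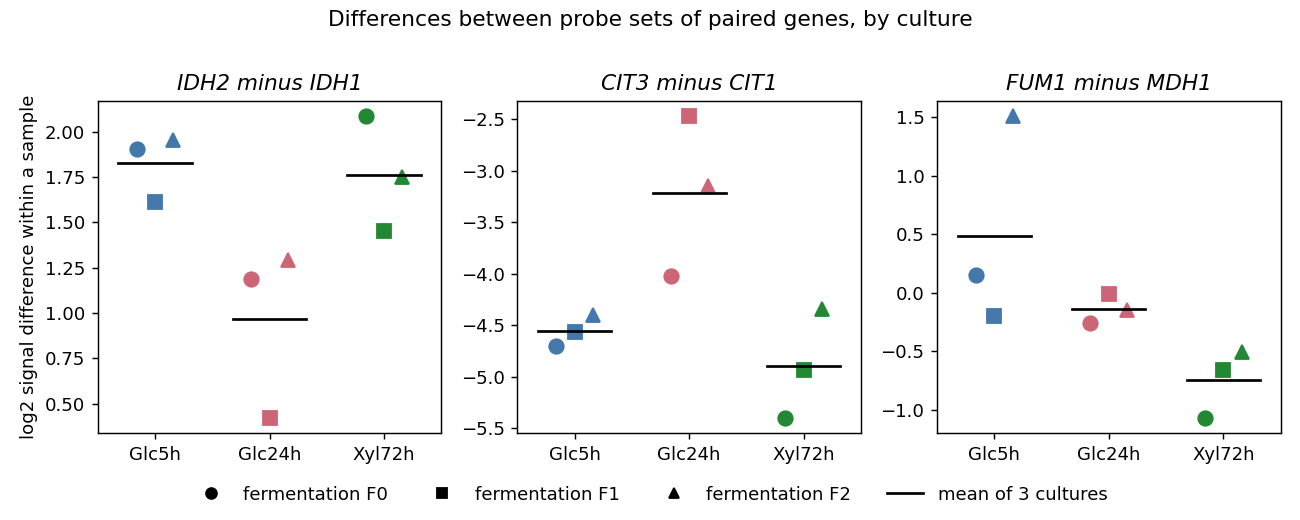
Log2 signal difference between the probe sets of 3 gene pairs in each sample, by state, with symbols for the fermentations and bars for the mean of 3 cultures. Shifts between states can be read, while the height of a panel depends on the probe sets, and IDH2 minus IDH1 was lowest in the 3 Glc24h cultures.

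Profiles over the 9 samples, centred on each gene's mean, were compared by the root mean square of their log2 differences with 2499 other genes above the floor in all samples. ACO1 and IDH1 were each other's nearest gene, at 0.172. RCK2, a protein kinase, was the next nearest to ACO1 at 0.187 and the nearest to FUM1 at 0.217, followed for FUM1 by CAD1, a transcription factor, at 0.225. The second gene for IDH1 was KHA1 at 0.228. CIT1 was nearest to DNF1, a lipid flippase, at 0.139 and to YLR001C at 0.158, CIT2 to YBL029C-A at 0.145 and YAP1801 at 0.214, and IDH2 to LSB5 at 0.188 and RDL1 at 0.194. For MDH1 the nearest were HXT6, a high-affinity glucose transporter whose probe set may share signal with its near-identical paralog HXT7, at 0.325 and DGA1 at 0.345. CIT3 was at the floor in some samples and was not compared.

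Of the other 11 genes of the cycle, 10 were tested. In Glc24h against Glc5h, 8 of the 10 were higher and none was lower, with a median log2 difference of 1.73, and in Xyl72h against Glc5h 7 were higher and none was lower, with a median of 1.56. None passed the test between Xyl72h and Glc24h, where the median was -0.18. SDH1 and SDH2, subunits of succinate dehydrogenase, had mean signals of 55.4 and 145 in Glc5h, 426 and 833 in Glc24h, and 340.2 and 940.0 in Xyl72h. Their log2 differences from Glc5h were 2.94 and 2.53 in Glc24h and 2.59 and 2.73 in Xyl72h. KGD1, of the 2-oxoglutarate dehydrogenase complex, was higher by 2.19 and 2.08, and its partner KGD4 by 1.80 and 1.59. The calls of these 4 genes held in all 23 alternatives, and LPD1 and LSC1 passed neither test.

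**Figure D4:**
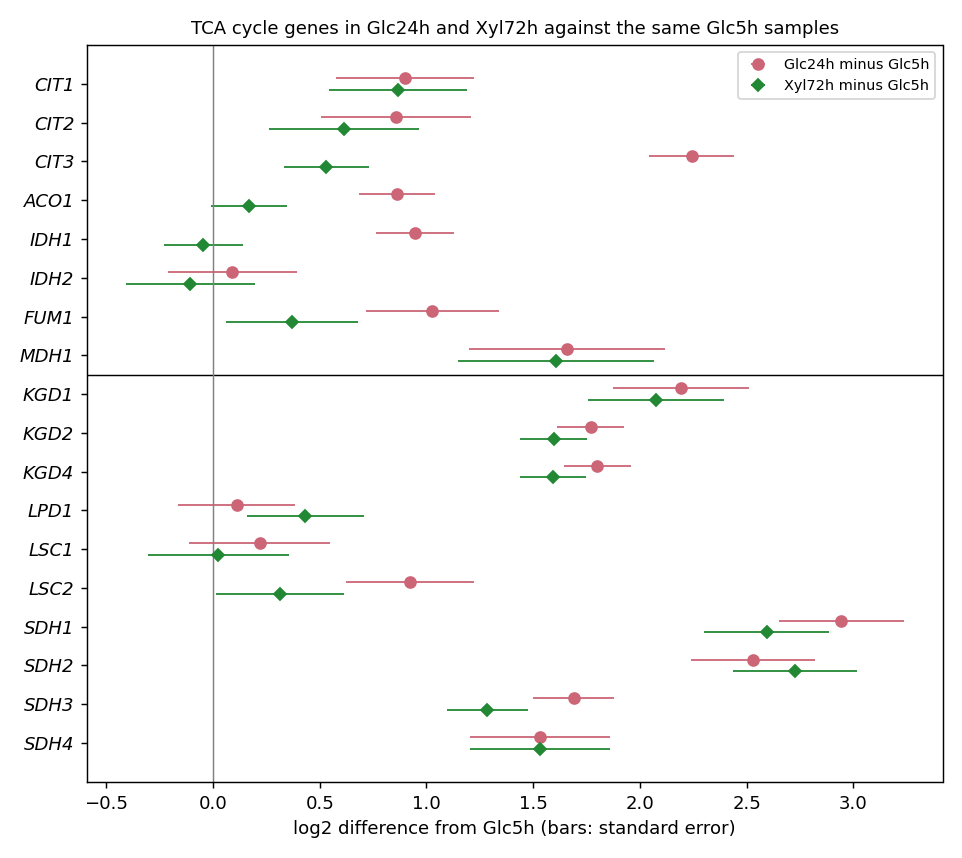
Log2 difference from Glc5h (bars: standard error) in Glc24h (circles) and Xyl72h (diamonds), for the 8 genes above the line and 10 other genes of the cycle under it. Both comparisons use the same Glc5h samples, with CIT3 at 2.24 and 0.53, IDH1 at 0.95 and -0.05, and MDH1 at 1.66 and 1.61.

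Among 8 other tested genes, for partner enzymes of the cycle, 5 rose from Glc5h to Glc24h. In Xyl72h 4 were higher than in Glc5h, with none lower, and 3 were lower than in Glc24h. MLS1, the malate synthase, was at the floor in all Glc5h cultures and at 987 ± 520 (SD, n = 3) in Glc24h and 242 ± 37.7 in Xyl72h, so it was higher by at least 5.82 and 3.91 on the log2 scale. ICL1, the isocitrate lyase, was at 22.0 ± 10.3, 949 ± 435 and 198 ± 39.7 in Glc5h, Glc24h and Xyl72h, with 2 Glc5h cultures at the floor. The cytosolic isocitrate dehydrogenase IDP2, at the floor in Glc5h, reached 195 ± 31.2 and 51.1 ± 21.9. MLS1, ICL1 and IDP2 were the 3 genes lower in Xyl72h than in Glc24h, by -1.91, -2.17 and -2.00. AGX1, an alanine-glyoxylate aminotransferase, was higher than in Glc5h by 4.80 in Glc24h and by 4.40 in Xyl72h. Against Glc24h, the xylose call of MLS1 was lost in 6 of 23 alternatives and that of ICL1 in 9, leaving out any of the 3 Xyl72h samples among them, while that of IDP2 held in all.

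Of 10 tested regulators, 5 rose from Glc5h to Glc24h, 4 were higher in Xyl72h than in Glc5h, and 2 were lower in Xyl72h than in Glc24h. HAP4, the activating subunit of the HAP complex, averaged 40.5 ± 14.2 (SD, n = 3) over the Glc5h cultures, 324 ± 95.9 at 24 h and 207 ± 133 on xylose. Its log2 difference from Glc5h was 3.02 in Glc24h and 2.22 in Xyl72h, with limma adjusted p of 0.00355 and 0.0162. The second call was lost in 3 of 23 alternatives, at adjusted p up to 0.0571. CAT8 and ADR1, activators of genes for non-fermentable carbon, were at the floor in all Glc5h cultures and higher in Glc24h by at least 2.00 and 1.62, and CAT8 was lower in Xyl72h than in Glc24h by -1.31. HAP3 was the other gene lower there, by -0.91, a call lost in 13 of 23 alternatives, and CAT8 lost its own in 3. The count of regulators lower on xylose than in Glc24h ran from 0 to 3 over the alternatives, and that of regulators higher on xylose than in Glc5h from 1 to 5. RTG2 and RTG3, of the retrograde pathway, had log2 differences of 0.00 and -0.03 in Glc24h and -0.26 and -0.22 in Xyl72h against Glc5h, and neither passed.

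Of 5 other retrograde targets, 1 was higher and none lower in Glc24h than in Glc5h, with a median log2 difference of -0.50. In Xyl72h 1 was higher and 1 lower than in Glc5h, with a median of -0.32. PYC1, a pyruvate carboxylase that makes oxaloacetate, was higher in Glc24h by 1.61 and in Xyl72h by 1.15 against Glc5h. DLD3, a 2-hydroxyglutarate transhydrogenase, was lower in Xyl72h, by -0.71. The xylose call of PYC1 was lost in 12 of 23 alternatives and that of DLD3 in 9. Of the partners of CIT3 in propionate breakdown, PDH1, the 2-methylcitrate dehydratase, averaged 27.0 ± 11.6 over the Glc5h cultures, with 1 at the floor. It averaged 304 ± 47.0 at 24 h and 66.1 ± 21.1 on xylose. Its log2 differences were at least 3.57 for Glc24h minus Glc5h, at least 1.33 for Xyl72h minus Glc5h and -2.25 for Xyl72h minus Glc24h, which all passed. The second call was lost in 10 and the third in 5 of 23 alternatives. ICL2, the 2-methylisocitrate lyase, was higher in Glc24h than in Glc5h by 1.27, lost in 4 of 23.

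Mitochondrial carriers moved in both directions. Of 8 tested, 3 rose and 3 fell from Glc5h to Glc24h, 4 were higher and 1 lower in Xyl72h than in Glc5h, and 1 was higher and 2 were lower in Xyl72h than in Glc24h. CRC1, the carnitine carrier, went from 18.6 ± 4.49 in Glc5h to 679 ± 299.5 in Glc24h and 114 ± 63.7 in Xyl72h. Its Glc5h signal was at the floor in 2 of 3 cultures. SFC1, the succinate-fumarate carrier, was at the floor in Glc5h and at 289.6 ± 77.5 in Glc24h and 29.3 ± 4.65 in Xyl72h, the last lower than Glc24h by -3.28 on the log2 scale. OAC1, an oxaloacetate carrier, averaged 577 ± 339 over the Glc5h cultures, 46.8 ± 8.92 at 24 h and 411 ± 52.5 on xylose, lower in Glc24h by -3.38 and higher in Xyl72h than in Glc24h by 3.14. DIC1, the dicarboxylate carrier, was lower than in Glc5h in both later states, by -2.97 and -2.85. The difference between Xyl72h and Glc24h lost its call in 8 of 23 alternatives for CRC1 and in 6 for OAC1, and held in all for SFC1.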

How the data were processed

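Signals of 15 Affymetrix Yeast Genome S98 arrays were read from the deposited series table. They are linear intensity values that the authors made with the Affymetrix software, with a trimmed mean of about 50 on each array (2% trimmed, 50.0 to 50.1). The study's methods describe log2 values from RMA, which this table does not hold, so the design for linear signals was used. Treatment labels of some arrays give other times than their titles, which were followed.

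The 60 control probe sets were left out. Each array was scaled to the common 75th percentile, values were raised to 16 (52.3% of values lay under it), log2 was taken and hybridisations of F2 were averaged. Probe sets at the floor on every array were dropped (3398 of 9275), leaving 5877. Differences between state means were tested with limma 3.58.1 in R 4.3.3, and p-values were adjusted by Benjamini-Hochberg over all of them. Code was tested on simulated data. Gene names came from the platform annotation: 6504 probe sets had 1 name, 328 several and 2443 none. A gene was represented by 1 probe set, a plain one before a marked one, then that with the highest mean, and counted as tested if that probe set was. Picking among tested probe sets gave 4681 genes in place of 4660, with the same list counts and nearest genes. Cross-hybridisation between paralogs such as CIT1 and CIT2 was not checked, and no sequences are shown.

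Cultures are the replicates. Fermentation numbers pair Glc5h with Glc24h because these were drawn from the same cultures. Deviations from the state means correlated at 0.02 to 0.26 there, at 0.11 to 0.28 between Glc5h and Xyl72h and at 0.53 to 0.58 between Glc24h and Xyl72h, which came from different cultures with the same number.

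The 8 genes and all lists were chosen with earlier results of these data known. All 8 genes are named, with the 2 nearest profiles for each and, in a list, at most 4 genes with the largest called differences, apart from RTG2, RTG3, LPD1 and LSC1, which were named after their values were seen. Alternatives were other scalings, floors and filters, a block, a random block, and each sample left out.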

Additional observations from a re-analysis of the deposited data

How the results depend on the processing

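Over the 24 gene comparisons and 552 alternatives, 469 kept direction and side of the threshold, 37 lost the call, 27 gained one and 19 changed sign, all 19 in comparisons that had not passed. The count of the 8 genes called for Glc24h against Glc5h, 5 as reported, was 8 under quantile normalization, 8 under cyclic loess and 3 with no filter on low signals. For Xyl72h against Glc5h, 1 as reported, it was 2 as deposited, 2 under quantile normalization, 2 under cyclic loess, 3 when scaled on 4 reference genes, 2 with log2(signal + 16), and 0 with no filter, with hybridisation 2.1 alone or with only the states compared. For Xyl72h against Glc24h, 2 as reported, it was 5 under cyclic loess, 1 with a floor of 4, 1 with no filter, 0 with a floor of 1 (added after seeing the data) and 1 with only the states compared. The F-test called 8 under quantile normalization and 8 under cyclic loess against 4, and the exact permutation F at p of 0.01 called 1. With the fermentation number as a replicate block the counts were 6, 2, 3 and 6, with CIT1 and FUM1 gained by the F-test (adjusted p 0.0329 and 0.0334) and the other changed calls given with CIT1 and ACO1. This block also joins xylose cultures to separate glucose cultures of the same number. A block for the pairs, added after seeing the data, called 0 of 7. Leaving out 1 sample gave 3 to 5, 0 to 1 and 1 to 2 called genes in the 3 comparisons, 2 to 4 by the F-test and 0 to 1 of the 7 pairs.

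IDH1 in Xyl72h minus Glc5h turned to 0.0074 as deposited and 0.44 on reference genes, and IDH2 there to 0.049 under quantile normalization and 0.38 on reference genes. With 1 sample left out, IDH1 there ran from -0.13 to 0.043 and IDH2 from -0.35 to 0.10, IDH2 in Glc24h minus Glc5h from -0.15 to 0.31, and Xyl72h minus Glc24h from -0.33 to 0.25 for CIT1, -0.48 to 0.012 for CIT2, -0.44 to 0.043 for IDH2 and -0.44 to 0.28 for MDH1. The cause was not tested.

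Scaling on 4 reference genes moved the median of all probe sets to 0.25 for Glc24h minus Glc5h and 0.16 for Xyl72h minus Glc5h. The share of calls that were higher went from 42.9% to 74.3%, from 45.5% to 78.1% and from 59.8% to 41.6% in the 3 comparisons, and as deposited it was 54.9%, 48.9% and 39.3%. Other lost calls of named list genes are given with them, except some in Xyl72h against Glc5h. There CAT8 lost its call in 13 of 23 alternatives, SFC1 in 6, and IDP2 and ADR1 in 1 each. Probe sets called ranged over the alternatives from 1442 to 2336, 944 to 1800 and 109 to 487, against 1969, 1508 and 331. Low signals limit CIT3, which was at the floor in 2 of 3 Glc5h cultures.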
